A study of Mus musculus with 6 samples.

Results

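The genes described here encode 4 secreted factors that act as motogens, proteins that make cells move, and the 5 receptors through which those factors are known to act. They are Bdnf, Ntf3, Gdnf and Hgf among the ligands and Ntrk2, Ntrk3, Ngfr, Gfra1 and Met among the receptors. The 9 genes were chosen by name for this role, and all 9 were found by symbol among the 17794 genes of the deposited table.

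The medial ganglionic eminence (MGE) is a ventral forebrain domain that makes cortical interneurons, which then travel tangentially into the cortex. Bdnf and its receptor TrkB, encoded by Ntrk2, promote the movement of these cells, and Ntrk3 encodes TrkC, the receptor for Ntf3. Ngfr encodes the low-affinity receptor shared by all neurotrophins. Gdnf binds Gfra1, which is tethered to the membrane and signals with the kinase Ret or with the adhesion molecule Ncam1, and Hgf binds the kinase Met. Rac GTPases act downstream of many such receptors, where exchange factors load them with GTP and they drive actin remodelling at the leading edge.

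RNA was sequenced from dissected MGEs of mouse embryos at E13.5 (embryonic age in days), in 3 libraries per genotype, each from the pooled MGEs of 3 embryos. Control embryos were Rac1+/+ and Rac3+/+, and double mutant (dmut) embryos were Rac1fl/fl and Rac3-/-. Both groups carried the Nkx2.1Tg(Cre) transgene and were R26R-YFP+/-, so Cre and the reporter did not differ between them. Cre in this line acts in the Nkx2-1 domain, so other cells in a dissected MGE can keep Rac1, and nothing in the labels describes a sort for YFP.

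Total gene reads ranged from 31881697 to 34612095 per control library and from 26766556 to 30363369 per dmut library. The table listed no total gene read count from 1 to 9, so a listed 0 stands for at most 9 reads. A count of 10 reads corresponded to 0.289 to 0.374 CPM (reads scaled to library size) on the raw library totals. The CPM levels below use totals scaled by the trimmed mean of M values (TMM) and can lie slightly outside this range at 10 reads. Rac3 had 728, 647 and 532 total gene reads in control replicates 1 to 3 and 16, 0 and 0 in dmut, at least 42.3-fold lower when each listed 0 is read as 9 (edgeR quasi-likelihood test, adjusted p = 0.0413). The mean CPM of Rac1 was 272 ± 2.77 for control libraries and 248 ± 26 for dmut libraries (SD, n = 3), and because the floxed gene keeps its other exons this level does not check the deletion. The defining MGE genes Nkx2-1 and Lhx6 were present in all 6 libraries, Nkx2-1 at 252 to 307 CPM in control and 253 to 284 CPM in dmut. Reads of the dissected tissue do not separate fewer cells of a type from less RNA per cell, which holds for every level below.

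Of the 9 motogen genes, 8 had enough reads to be tested and Ntf3 did not. None of the 8 passed edgeR's quasi-likelihood test at a Benjamini-Hochberg adjusted p of 0.05, where 77 of 15960 tested genes did, 0.482% of them (0.163% higher and 0.32% lower in dmut). None of the 8 had an unadjusted p under 0.05 either, against 21.3% of all tested genes, and none was called by DESeq2, which called 10.2% of the genes it gave an adjusted p. The same held on unique gene reads (0.588% of all genes called), with limma-voom (0.796%), with limma on log2(RPKM + 1) (0.307%), with no filter beyond 1 read (0.466%), with scaling by library size alone (4.89%) and at an adjusted p of 0.1 (6.67%). For none of the 8 did the 3 control and 3 dmut levels lie apart, against 28.5% of all tested genes. The log2 fold change of dmut over control was positive for 2 and negative for 6, with a median of -0.09 beside -0.02 over all tested genes. Ntrk2 and Ntrk3 had the narrowest intervals of these 8 genes, while Gfra1, Ngfr and Met varied severalfold among the dmut libraries.

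**Figure D1:**
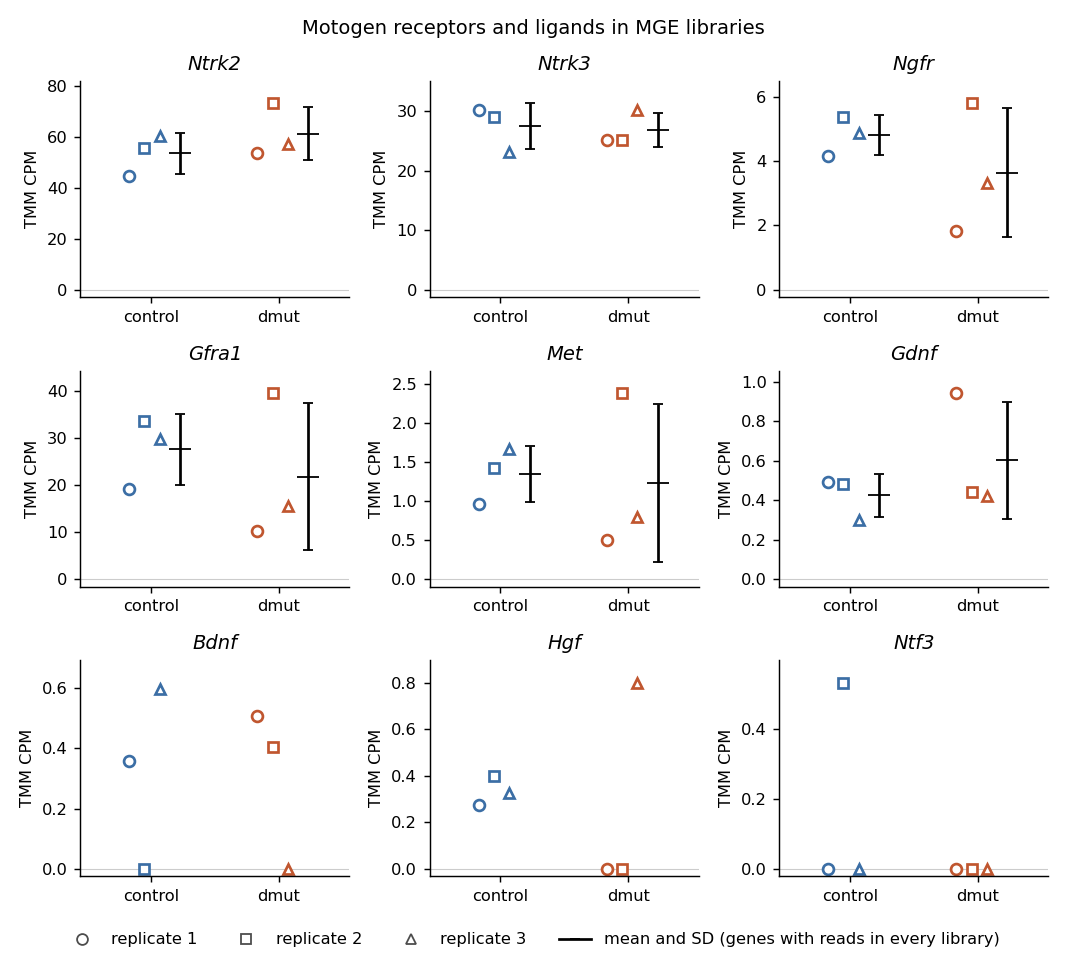
Level of each of the 9 genes in every library, in TMM-scaled CPM, with control in blue and dmut in orange; black bars give mean and SD of 3 libraries for the 6 genes with reads in every library. The groups overlap for all 9 genes, and Gfra1, Ngfr and Met are lowest in dmut replicate 1 and highest in dmut replicate 2.

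The stretches upstream of the RefSeq start of Gfra1, Ngfr, Met and Ntrk2 are shown here because the first 3 varied together across the libraries while Ntrk2 did not share their order. They were taken from RefSeq on GRCm38.p6, 5′ to 3′ on the strand of the gene, without bases that fall in exons of GENCODE M21, and capitals mark GGGCGG. RefSeq promoter entries matched 8 of the 9 genes. The Gfra1 stretch lies inside the gene as GENCODE annotates it, outside its exons, because GENCODE places the start farther upstream than RefSeq; the other 3 stretches end at the GENCODE start.
Gfra1, chr19:58455399-58455648, minus strand: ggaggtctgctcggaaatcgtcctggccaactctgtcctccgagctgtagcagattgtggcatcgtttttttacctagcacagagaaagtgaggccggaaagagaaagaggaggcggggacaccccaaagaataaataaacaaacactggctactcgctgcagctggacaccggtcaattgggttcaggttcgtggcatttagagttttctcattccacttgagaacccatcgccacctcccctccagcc
Ngfr, chr11:95587736-95587948, minus strand: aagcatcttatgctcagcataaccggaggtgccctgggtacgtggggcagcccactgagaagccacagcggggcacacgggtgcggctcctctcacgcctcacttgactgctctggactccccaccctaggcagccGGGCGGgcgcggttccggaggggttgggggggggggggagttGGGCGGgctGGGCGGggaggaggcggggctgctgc
Met, chr6:17463707-17463799, plus strand: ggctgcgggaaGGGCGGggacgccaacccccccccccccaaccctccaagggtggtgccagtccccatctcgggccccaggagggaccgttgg
Ntrk2, chr13:58806319-58806568, plus strand: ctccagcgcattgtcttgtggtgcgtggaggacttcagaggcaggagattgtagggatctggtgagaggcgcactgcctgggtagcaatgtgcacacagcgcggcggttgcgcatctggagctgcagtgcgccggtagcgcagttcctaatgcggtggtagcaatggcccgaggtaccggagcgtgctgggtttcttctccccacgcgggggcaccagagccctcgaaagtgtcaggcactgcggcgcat
Motifs were searched on both strands. The GC-box core GGGCGG occurred 3 times upstream of Ngfr, 1 time upstream of Met and 0 times upstream of Gfra1 and Ntrk2. Of 32851 promoters, 32.7% held it in a window of 250 bases, 27.4% in 213 bases and 9.67% in 93 bases, the lengths of these stretches. The E-box CANNTG occurred 3 times upstream of Gfra1, 1 time each upstream of Ngfr and Ntrk2 and 0 times upstream of Met, and 66.2%, 61.1% and 34.1% of promoters held it at the same lengths. None of the 4 stretches held TATAAA, found in 12.4% of windows of 250 bases, or the homeodomain core TAATTA, found in 4.84%. The GC content was 52.4% for Gfra1, 70.9% for Ngfr, 75.3% for Met and 62.8% for Ntrk2, and none of the motifs searched was found upstream of all of Gfra1, Ngfr and Met.

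Ntrk2, which encodes TrkB and lies on chromosome 13 from 58806569 to 59133970 on the plus strand of GRCm38 (GENCODE M21, as for every gene span below), had the most reads of the 9 genes. Its level was 44.6, 55.5 and 60.3 CPM in control replicates 1 to 3 and 53.5, 73 and 57.1 CPM in dmut replicates 1 to 3. The highest library was dmut replicate 2 and the lowest was control replicate 1, and the groups overlapped. The group means were 53.5 ± 8.06 and 61.2 ± 10.4 CPM (SD, n = 3), a log2 fold change of 0.19 ± 0.16 (SE) with a 95% interval from -0.18 to 0.57 (edgeR adjusted p = 0.549). The interval stayed within a 2-fold difference in both directions, as did that of the second Trk receptor below.

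Ntrk3, which encodes TrkC and lies on the minus strand of chromosome 7 from 78175959 to 78738012, was at 30.2, 29.1 and 23.1 CPM in control and 25.2, 25.2 and 30.2 CPM in dmut. Control replicate 1 and dmut replicate 3 were highest, equal to the digits given, and the lowest was control replicate 3. The log2 fold change was -0.03 ± 0.14 (SE), with a 95% interval from -0.36 to 0.29 (edgeR adjusted p = 0.926).

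Ngfr, the shared neurotrophin receptor gene on the minus strand of chromosome 11 from 95568818 to 95587735, was at 4.14, 5.37 and 4.88 CPM in control and 1.81, 5.79 and 3.32 CPM in dmut. Its lowest and highest libraries were both dmut, replicates 1 and 2, from 50 and 158 total gene reads. The log2 fold change was -0.40 ± 0.39 (SE), with a 95% interval from -1.32 to 0.52 (edgeR adjusted p = 0.632).

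Gfra1, the co-receptor that binds Gdnf, lies on the minus strand of chromosome 19 from 58235604 to 58455909. It was at 19.2, 33.6 and 29.9 CPM in control and 10.3, 39.6 and 15.5 CPM in dmut. Dmut replicates 1 and 3 lay below every control library and dmut replicate 2 lay above every control library. The means were 27.6 ± 7.53 and 21.8 ± 15.6 CPM (SD, n = 3), with a log2 fold change of -0.34 ± 0.47 (SE) and a 95% interval from -1.44 to 0.76 (edgeR adjusted p = 0.745).

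Met, the Hgf receptor gene on the plus strand of chromosome 6 from 17463800 to 17573980, was covered by 35, 53 and 56 total gene reads in control and 14, 65 and 21 in dmut. These are 0.959, 1.42 and 1.67 CPM in control and 0.507, 2.38 and 0.801 CPM in dmut. As for Gfra1, dmut replicates 1 and 3 lay below every control library and dmut replicate 2 above every one. The log2 fold change was -0.13 ± 0.64 (SE), with a 95% interval from -1.63 to 1.37 (edgeR adjusted p = 0.937).

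The ligand genes had few reads in the MGE. Gdnf, on the plus strand of chromosome 15 from 7810846 to 7837575, had 18, 18 and 10 total gene reads in control and 26, 12 and 11 in dmut. Only dmut replicate 1 stood above all 3 control libraries. The sums were 46 reads in control, with an exact Poisson 95% interval of 33.7 to 61.4, and 49 reads in dmut, with an interval of 36.3 to 64.8, both for counting error only. The log2 fold change was 0.50 ± 0.77 (SE), with a 95% interval from -1.30 to 2.30 (edgeR adjusted p = 0.772).

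Bdnf, on the plus strand of chromosome 2 from 109674700 to 109727007, had 13, 0 and 20 total gene reads in control and 14, 11 and 0 in dmut, so 1 library of each group was listed at 0. The sums of 33 and 25 reads had exact Poisson 95% intervals of 22.7 to 46.3 and 16.2 to 36.9. These intervals cover counting error only, take a listed 0 as 0 and are not scaled for depth, so they do not compare the groups. The 95% interval of the log2 fold change of Bdnf ran from -3.98 to 3.87, so a large difference in either direction was not detectable at this depth (edgeR adjusted p = 0.99).

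Hgf, on the plus strand of chromosome 5 from 16553495 to 16620152, had 10, 15 and 11 total gene reads in control and 0, 0 and 21 in dmut. The 2 dmut libraries at 0 may each hold up to 9 reads, and the third held more than any control library. The 95% interval of its log2 fold change ran from -4.25 to 3.60 (edgeR adjusted p = 0.94). Ntf3, on the minus strand of chromosome 6 from 126101412 to 126166910, was listed with 20 reads in control replicate 2, of which 16 were unique, and at 0 in the other 5 libraries, and was not tested. The listed level per exon length in control replicate 2 corresponds to about 1.2 exon reads. Most of those 20 reads can therefore lie outside exons and need not come from Ntf3 mRNA.

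**Figure D2:**
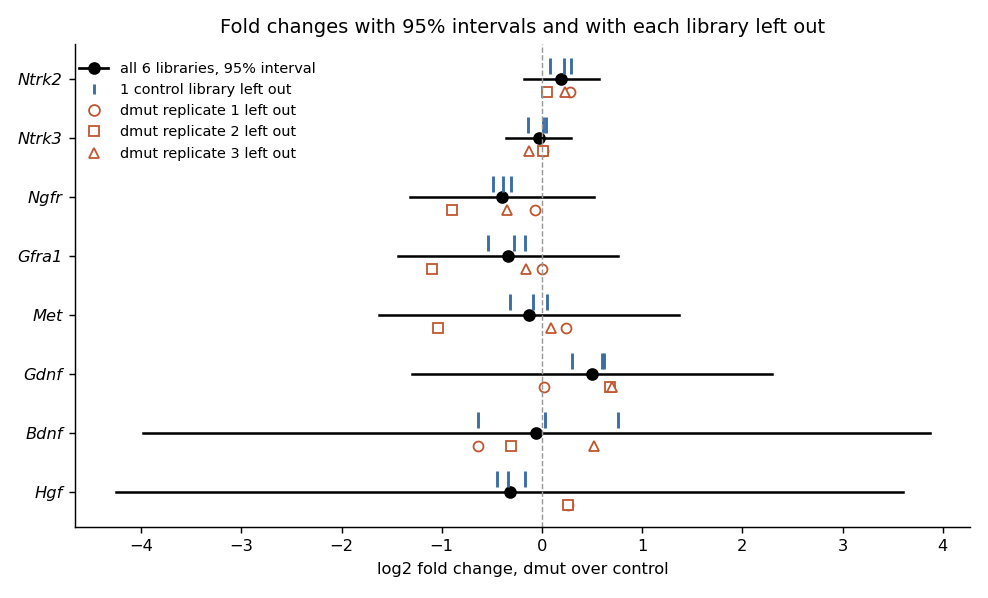
Log2 fold change of dmut over control from edgeR for the 8 tested genes, with 95% intervals (black) and the value with each library left out in turn (blue ticks for control, orange symbols for dmut). Without dmut replicate 2, Gfra1, Ngfr and Met move to -1.10, -0.90 and -1.04; the value of Hgf without dmut replicate 3 is not drawn because both remaining dmut libraries are listed at 0.

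Compared per exon length, as RPKM, the read count scaled to exon length and library size, the receptors were ordered differently from their read counts. In control libraries Gfra1 had the highest RPKM of the 9 genes, 5.09 ± 1.44 (SD, n = 3), followed by Ntrk2 at 3.73 ± 0.615, and their ranges of 3.5 to 6.31 and 3.04 to 4.19 overlapped. Ntrk3 at 2.66 ± 0.148 RPKM lay below Ntrk2 in its range of 2.53 to 2.82, Ngfr at 1.42 ± 0.216 lay below Ntrk3, and Met at 0.153 ± 0.0522 lay below Ngfr. Met and Gdnf, at 0.0985 ± 0.032 RPKM, overlapped, and Hgf, Bdnf and Ntf3 had lower means of 0.0689, 0.036 and 0.00674. The neurotrophin and Gdnf receptors were therefore at more than 1 RPKM in control tissue while none of the 4 ligands and not Met reached that level. In dmut the mean RPKM was 3.64 ± 0.73 for Ntrk2, 3.36 ± 2.49 for Gfra1, 2.57 ± 0.689 for Ntrk3 and 0.964 ± 0.526 for Ngfr, and these 4 ranges overlapped with those of the same genes in control.

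Reads that mapped to a single place made up most of each gene. The unique share of total gene reads was 98.4% in control and 98.4% in dmut for Ntrk2, 97.3% and 97.5% for Ntrk3, and 99.6% and 99.8% for Ngfr. Gfra1 had the lowest share of the 6 genes with reads in every library, 93.5 ± 0.661% in control and 91.9 ± 3.5% in dmut (SD, n = 3), which did not differ beyond the spread (two-sided exact permutation test, p = 0.5, where 0.1 is the smallest possible). The ratio of the exon rate behind the RPKM to total gene reads differed between groups by -0.155 (Gdnf) to 0.152 (Ntrk3) on the log2 scale over the same 6 genes, with exact permutation p from 0.2 to 1.

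The spread among dmut libraries set Gfra1, Ngfr and Met apart from Ntrk2 and Ntrk3. The highest dmut library exceeded the lowest 4.7-fold for Met, 3.85-fold for Gfra1 and 3.2-fold for Ngfr, beside a median of 1.3-fold over 13017 genes with reads in every library and a mean of at least 50. The ratios of Gfra1 and Ngfr were larger than those of 98.3% and 97.6% of those genes. Met averaged fewer reads than this class, and counting error widens such a ratio at low counts, so its ratio is not ranked. The same ratio was 2.25 for Gdnf, 1.36 for Ntrk2 and 1.2 for Ntrk3. Among control libraries it was 1.74 for Met, 1.76 for Gfra1 and 1.3 for Ngfr, with a median of 1.19.

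Summed markers of cortical excitatory neurons, cells that arise outside the MGE, had the same order of libraries as Met, which single markers did not all share. Their summed level over 10 genes was 18.4, 44.1 and 53.5 CPM in control and 8.08, 87.5 and 14.6 CPM in dmut replicates 1 to 3. Slc17a6 was highest in control replicate 2, at 14.6 CPM, and Neurod1 and Neurod2 in control replicate 3, at 2.26 and 7.29 CPM. The other markers of this list were highest in dmut replicate 2. No marker of the 10 was at 0 in every library, 4 were at 0 in some library, and 0 were called between the groups. The summed markers of the MGE and its neurons were 1832, 1642 and 1603 CPM in control and 2080, 1680 and 2136 CPM in dmut, with none of the 10 at 0. Cholinergic markers summed to 38.9, 122 and 59.8 CPM in control and 27.5, 117 and 28.5 CPM in dmut, of which Zic4 made up 17.9, 102 and 37.6 CPM and 13.4, 102 and 12 CPM. Mesenchymal and meningeal markers summed to 91.4, 72.1 and 87.7 CPM in control and 48.9, 68.4 and 56.2 CPM in dmut. Neural crest and peripheral glia markers, cell types that express Ngfr, summed to 6.08, 7.91 and 6.49 CPM in control and 3.33, 3.85 and 2.78 CPM in dmut, with 4 of the 5 in the table at 0 in some library. Microglial markers summed to 72.2 to 88.3 CPM in control and 92.6 to 121 CPM in dmut, endothelial markers to 218 to 244 and 215 to 267 CPM, and markers of the lateral eminence to 517 to 579 and 470 to 581 CPM. No marker in any of these lists was called, beside 0.482% of all tested genes. The part of other cells in the levels of Gfra1, Ngfr and Met was not tested.

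**Figure D3:**
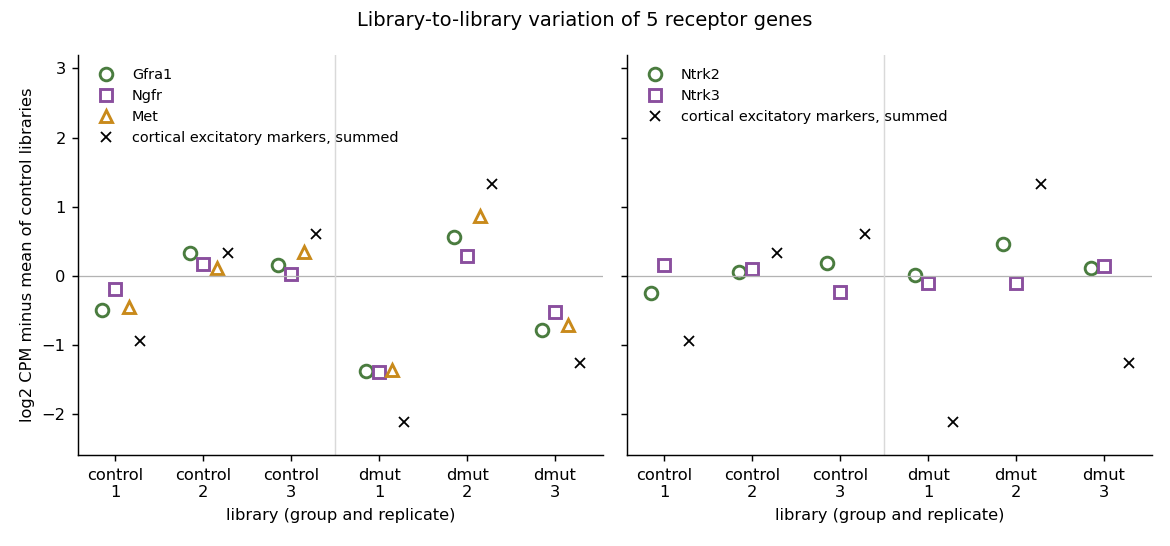
Log2 CPM of 5 receptor genes in each library, minus the mean of the control libraries, with the summed level of 10 cortical excitatory markers (crosses) on the same scale. Gfra1, Ngfr and Met lie between -1.40 and -1.37 in dmut replicate 1 and between 0.28 and 0.86 in dmut replicate 2, while Ntrk2 and Ntrk3 stay between -0.25 and 0.46 in all 6 libraries.

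As an untested description over 6 libraries, the log2 CPM of Gfra1 had a Pearson r of 0.98 with Met and 0.96 with Ngfr. Ngfr ranked 70 among 13156 genes with a mean of at least 50 reads. Met averaged fewer reads than this class and is not ranked. The genes most like Gfra1, named after their values were seen, were Fam114a1 (r = 0.993), Dusp6 (0.992), which is also among the feedback genes below, and Klhl23 (0.991). Ret, the kinase that signals with Gfra1, had an r of 0.95 with it and was singled out after its values were seen. Its levels were 0.904, 3.74 and 1.93 CPM in control and 0.362, 5.1 and 1.37 CPM in dmut, with a log2 fold change of 0.05 ± 0.88 (SE; edgeR adjusted p = 0.983). The corresponding r of Gfra1 was 0.56 with Ntrk2 and -0.20 with Ntrk3. The genes most like Ntrk2 were Gsk3b (r = 0.998), Pygb (0.993) and Ctnnb1 (0.991), and those most like Ntrk3 were Foxp4 (0.983), Plbd2 (0.978) and Fbrs (0.970). The r between Ntrk2 and Ntrk3 was -0.56.

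Sample titles carry 3 dates, and only 29 March and 4 May hold libraries of both groups. The difference in mean log2 CPM, dmut minus control, was -0.74 on 29 March and -0.95 on 4 May for Gfra1, beside -0.54 over all libraries. For Ngfr it was -0.73 and -0.56, beside -0.55, and for Met -0.37 and -1.06, beside -0.41. Ntrk2 differed by 0.17 and -0.08, Ntrk3 by -0.21 and 0.39, and Gdnf by 0.42 and 0.50. The direction of the mean difference was the same on both dates for Gfra1, Ngfr, Met and Gdnf and turned for Ntrk2 and Ntrk3. Each date held 1 control library and 1 or 2 dmut libraries. On 29 March the 2 dmut libraries lay on either side of the control library for Gfra1, Ngfr, Met and Gdnf. For Gfra1 they were at 10.3 and 39.6 CPM beside 33.6 CPM, so that date's mean does not give a direction shared by its libraries. No test was made within a date.

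The lower mean of Gfra1, Ngfr and Met in dmut rested on which dmut libraries were included. Without dmut replicate 2 the log2 fold change of Gfra1 was -1.10 ± 0.29 (SE), with an unadjusted p of 0.00906 and an adjusted p of 0.0926 in edgeR, and it was -0.00 without dmut replicate 1. Without dmut replicate 2 that of Ngfr was -0.90 (edgeR adjusted p = 0.148), and without dmut replicate 1 it was -0.07. Met was at -1.04 without dmut replicate 2 (edgeR adjusted p = 0.312) and at 0.24 without dmut replicate 1. Leaving out dmut replicate 2 also raised the number of genes called from 77 to 585, 3.54% of those tested, none of them among the 9, and 25.1% of those tested then had an unadjusted p under 0.05.

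By the authors' own deposited test, none of the 9 genes passed an adjusted p of 0.05, which 155 of the 17794 genes in the table did. In the authors' deposited table the largest signed fold among the 9 was that of Gfra1, -1.34, followed by Ngfr at -1.29, while Ntrk2 was at 1.09 and Ntrk3 at 1.08.

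Further genes of the same pathways were read from the same fit. Of 107 listed genes, 102 were in the table and 98 were tested. Of these, 0 passed an adjusted p of 0.05 in either direction, beside 0.482% of all tested genes. A count of 0 called lies near that share, here and for each list below. DESeq2 called 8 of the 98 (8.16%, beside 10.2% of all genes). Unadjusted p was under 0.05 for 16 of the 98, the groups did not overlap for 22 of the 98, and the median log2 fold change was -0.03 beside -0.02 over all tested genes. These counts can be read against the 21.3% and 28.5% of all tested genes given above.

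Among 10 tested neurotrophin ligands, receptors and co-receptors outside the 9 genes, 0 were called and the median log2 fold change was -0.13. Ngfrap1, which encodes a protein that binds the receptor made by Ngfr, was at 86.9, 83.7 and 93.8 CPM in control and 123, 110 and 128 CPM in dmut. All 3 dmut libraries lay above all 3 control libraries, with a log2 fold change of 0.45 ± 0.10 (SE) and an edgeR adjusted p of 0.0795, and DESeq2 gave 0.000417. Sorl1 and Sorcs1, sortilin-family receptors, had log2 fold changes of -0.29 (edgeR adjusted p = 0.326) and -0.30 (0.41). Of 9 tested genes that process neurotrophins, 0 were called. Serpini1, a protease inhibitor, Pcsk7, a proprotein convertase, and Cpe, a carboxypeptidase of secretory granules, had log2 fold changes of -0.42, -0.39 and 0.26, with edgeR adjusted p of 0.231, 0.248 and 0.248.

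In the Gdnf family 8 genes were tested and 0 called, with a median log2 fold change of 0.07. Gfra2, the co-receptor for neurturin, was at 5.54, 6.36 and 6.19 CPM in control and 2.25, 4.47 and 4.46 CPM in dmut. All dmut libraries lay below all control libraries, with a log2 fold change of -0.69 ± 0.28 (SE; edgeR adjusted p = 0.216). Ncam1, the adhesion molecule that also binds Gdnf with Gfra1, had a log2 fold change of 0.31 (edgeR adjusted p = 0.388). Pspn, a ligand of the family, was near the lowest listed count, at 0, 0 and 0.357 CPM in control and 0.435, 0.953 and 0.458 CPM in dmut (edgeR adjusted p = 0.471).

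In the Hgf and Met family 7 genes were tested and 0 called, with a median log2 fold change of -0.24. Mst1r, which encodes a receptor kinase related to Met, had 15, 27 and 12 total gene reads in control and 0, 0 and 0 in dmut. Its mean was at least 1.49-fold lower in dmut when each listed 0 is read as 9, with an edgeR adjusted p of 0.103 and 0.0111 in DESeq2. Plau, the urokinase that can activate Hgf, was at 2.16, 2.14 and 1.99 CPM in control and 1.01, 1.61 and 1.14 CPM in dmut, without overlap, with a log2 fold change of -0.74 ± 0.34 (SE; edgeR adjusted p = 0.268). Cd44, a surface protein that can assist Met, measured 327, 410 and 381 CPM in control and 533, 1380 and 409 CPM in dmut, where the highest value came from dmut replicate 2. Its log2 fold change of 1.05 ± 0.42 (SE, edgeR adjusted p = 0.209) was 0.34 without that library. On the exon-based scales it was -0.18 for log2(RPKM + 1) and -0.48 for log2(RPKM + 0.1). The CPM levels count total gene reads, which can lie outside exons, so they need not be levels of Cd44 mRNA. The share of exon reads of Cd44 was not tested.

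Downstream, 35 receptor adaptors and kinases were tested and 0 called, with a median log2 fold change of -0.01. The smallest p belonged to the MAP kinase kinase gene Map2k2, at 0.46 ± 0.11 (SE; edgeR adjusted p = 0.0847), then the adaptor Grb2 at 0.30 ± 0.09 (0.118) and the kinase Akt2 at 0.25 (0.204), and for each of them the groups did not overlap. DESeq2 gave an adjusted p of 0.00146 for Map2k2 and 0.00695 for Grb2.

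A list of 15 genes held exchange factors that link these receptors to Rac, together with the Dock partners Elmo1 and Elmo2. Of the 15, 0 were called, and the median log2 fold change was -0.14. Unadjusted p was under 0.05 for 6, Elmo1 and Elmo2 among them, and 9 had groups that did not overlap. Over all tested genes these shares were 21.3% and 28.5%. Dock3, a Rac activator, was at 48.8, 51.3 and 48.5 CPM in control and 36.6, 37 and 40.5 CPM in dmut, without overlap. Its log2 fold change was -0.38 ± 0.09 (SE; edgeR adjusted p = 0.0888), and with scaling by library size alone it was -0.58 (adjusted p = 0.0383), while DESeq2 gave an adjusted p of 0.00365. Elmo1, a partner of Dock proteins, was at 0.31 (edgeR adjusted p = 0.132) and Prex1, a further Rac exchange factor, at -0.35 (0.144) on the log2 scale. DESeq2 gave an adjusted p of 0.027 for Elmo1, and edgeR with library size alone one of 0.0476 for Prex1. Among 15 feedback and response genes 0 were called. Spred3, an inhibitor of Ras to MAP kinase signalling, was at 32.6, 36.6 and 26.8 CPM in control and 15.8, 26.1 and 16.6 CPM in dmut, with a log2 fold change of -0.71 ± 0.22 (SE; edgeR adjusted p = 0.125), or -0.98 without dmut replicate 2 (0.042), and DESeq2 gave an adjusted p of 0.0439. The immediate early gene Egr1 had a log2 fold change of 0.53 (edgeR adjusted p = 0.463) and the signalling inhibitor Spry2 one of -0.18 (0.635).

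**Figure D4:**
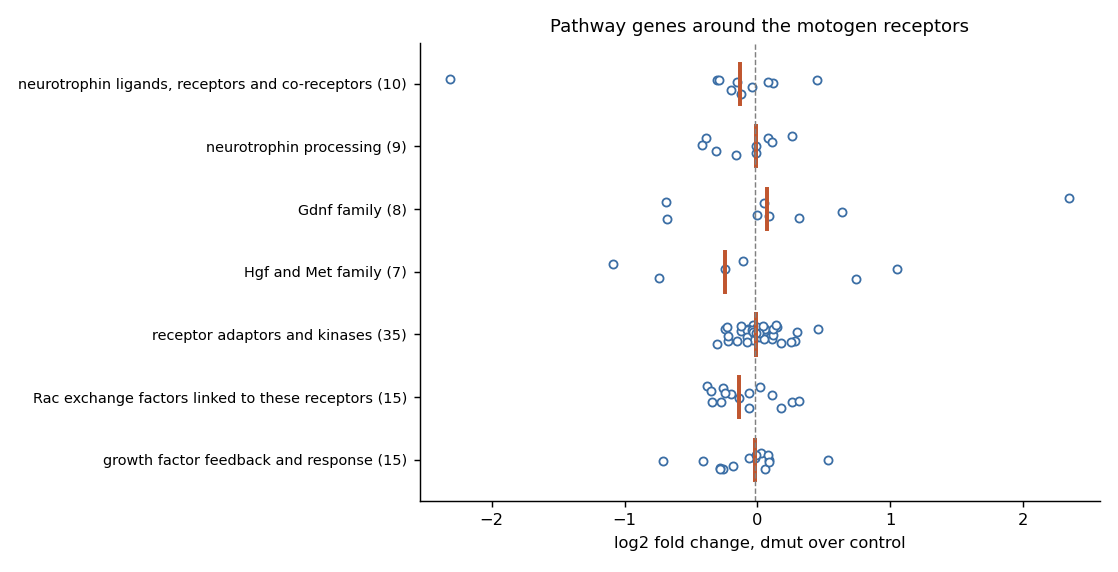
Log2 fold change of dmut over control for every tested gene of the 7 pathway lists, 1 point per gene, with the list median as an orange bar and the median of all tested genes as a dashed line. The points lie on both sides of 0 in each list, with list medians from -0.24 to 0.07; Mst1r, with no listed reads in dmut, is not drawn.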

How the data were processed

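Per the labels' protocols, RNA was taken from pooled MGEs of 3 embryos per library, mRNA was isolated, and Ion Torrent libraries were made. The deposited table holds, per gene and library, total gene reads and unique gene reads, which are whole-number counts, and RPKM computed by the authors. The authors' deposited table also gives a signed fold, a p-value and an adjusted p-value. The submitters' processing notes name the builds GRCm38 and mm10, and the aligner is not given in the sources used here. A further 23 per-library columns were not used.

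Counts were tested with edgeR 4.0.16 in R 4.3.3 (TMM factors, filterByExpr, quasi-likelihood test, two-sided, Benjamini-Hochberg adjustment over all 15960 tested genes), after the fit had been tested on simulated data. The simulation gave all genes the same spread in both groups, while replicate pairs here differed more within dmut than within control. It therefore does not check the fit at the spread of these data. CPM values are TMM-scaled. Alternatives used DESeq2 1.42.0 and limma 3.58.1. Total gene reads can include reads outside exons, while RPKM is per exon length.

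The 9 genes and the pathway and marker lists were chosen with earlier results of these data known. Named were the 9 genes, Rac1 and Rac3, in each list the called genes or otherwise the 3 of smallest p, marker genes that moved with a member, and the 3 genes most correlated with each of Ntrk2 and Ntrk3 over the 6 libraries. Some list genes are not reported here by name. Labels give replicates as biological, and replicate pairs differed beyond sampling noise.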

Additional observations from a re-analysis of the deposited data

How the results depend on the processing

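None of the 8 tested genes was called under any alternative run. Over these, the log2 fold change ranged from -1.10 to -0.00 for Gfra1, from -0.90 to -0.07 for Ngfr, from -1.04 to 0.24 for Met, from -0.04 to 0.29 for Ntrk2, from -0.23 to 0.04 for Ntrk3 and from 0.02 to 0.70 for Gdnf. Directions turned for Ntrk2 on log2(RPKM + 1) (-0.03), log2(RPKM + 0.1) (-0.04) and library size alone (-0.01), settings that shifted the median of all genes to -0.10, -0.18 and -0.22. They turned for Ntrk3 with the date as a block (0.04) and with a library left out (-0.14 to 0.04), and for Met with a library left out (-1.04 to 0.24). Bdnf turned on both RPKM scales (0.01 and 0.04), with voom (0.28), with the replicate block (0.33), with the date block (0.22) and with a library left out (-0.64 to 0.76). Hgf turned to 0.00 on log2(RPKM + 1) and to 0.26 without either dmut library at 0; its fitted value of -6.46 without dmut replicate 3 sets reads against libraries at 0 and is no measure of size. Cd44 turned on both RPKM scales (-0.18 and -0.48). The cause of these turns was not tested.

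Genes called numbered 77, and 1783 with DESeq2, 781 after scaling to library size only, 49 on log2(RPKM + 1), 135 among genes averaging 50 or more reads, 127 with voom and 1065 at an adjusted p of 0.1. Leaving out 1 library gave 2, 2 and 4 without control replicates 1 to 3, and 22, 585 and 12 without dmut replicates 1 to 3. The date block left 0 in edgeR, with 2033 genes at an unadjusted p under 0.05. Pathway genes called numbered 2 with library size alone, 8 with DESeq2, 3 at an adjusted p of 0.1 and 0 to 2 with a library left out. Whether the replicate numbers pair the samples was not settled. Deviations of same-numbered libraries correlated at 0.11, 0.123 and 0.0152, and those of differently numbered libraries at -0.136 to 0.0163. The replicate block moved the genes called from 77 to 227. Under it the log2 fold change of Gfra1 was -0.53, with an unadjusted p of 0.0805 and an adjusted p of 0.276 in edgeR. Genes near 10 reads per library, Bdnf, Hgf, Gdnf and Ntf3, were limited by depth.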
